A study of Homo sapiens with 2 samples.

Results

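Genes of the carnitine shuttle and of fatty acid oxidation were compared between EBC1, a human lung squamous carcinoma line with an amplified MET gene, and EBC1-R, a subline of the same cells. The 9 genes were a named list (CPT1A, CPT2, CRAT, ACADVL, ACADM, HADHA and HADHB for mitochondrial steps, ACOX3 and EHHADH for peroxisomal steps), and all 9 were measured among the 18377 genes of the table. EBC1-R was selected by growing EBC1 in rising concentrations of a MET inhibitor (PHA-665752), was kept in 3 µM of inhibitor, and was profiled against the wild type line to look for mechanisms of resistance. Each cell line was measured on 1 whole-transcript array, so that there is no replicate, no error between cultures and no test, and drug exposure and selection cannot be told apart. Levels are given as deposited, on a scale read as log2 intensity, and every difference is the EBC1-R level less the EBC1 level on that scale. Intensities of different probe sets do not give the relative amounts of their transcripts, so genes are compared with each other only by their differences; where a signal is called low or set against the median of all genes, this describes the signal alone. No detection calls were used, so it is not known whether low signals lie above background, and a fold that starts from one can understate the change.

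Long-chain fatty acids enter mitochondria as carnitine esters. CPT1A, on the outer membrane, makes the acylcarnitine and is the step that malonyl-CoA inhibits, SLC25A20 carries it across the inner membrane, and CPT2 returns the acyl group to coenzyme A. Each round of beta-oxidation then consists of a first oxidation, a hydration, a second oxidation and a thiolytic cleavage. Peroxisomes run the same chemistry with their own enzymes on very-long-chain, branched and dicarboxylic acids, beginning with an oxidase that passes electrons to oxygen in place of a dehydrogenase, and they pass shortened chains on as carnitine esters through CROT and CRAT.

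The mitochondrial genes had nearly the same level on both arrays, whereas the peroxisomal bifunctional enzyme EHHADH was higher in EBC1-R. Differences of the 7 mitochondrial genes lay between -0.11 and 0.05, with a median of -0.02, against a median of -0.03 over all 18377 genes. The 2 peroxisomal genes differed by 0.05 (ACOX3) and 0.58 (EHHADH). None of the 9 genes differed 1.5-fold or more, which 7.57% of all genes did, and none 2-fold, which 2.14% of all genes did (1.26% higher and 0.887% lower). Of the 9, 5 were above 0, which 43.3% of all genes were. The median size of the difference, regardless of sign, was 0.05 for the 9 genes and 0.16 for all genes. As a yardstick within this pair of arrays, probe sets of the same gene differed from each other in EBC1-R minus EBC1 with a pooled SD of 0.16 (376 genes with a mean level at or above the median, 879 probe sets); 8 of the 9 genes lay within 0.16 of 0, as did 50.4% of all genes. Each of the 9 genes is read by 1 probe set, so none has a second reading of its own.

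**Figure D1:**
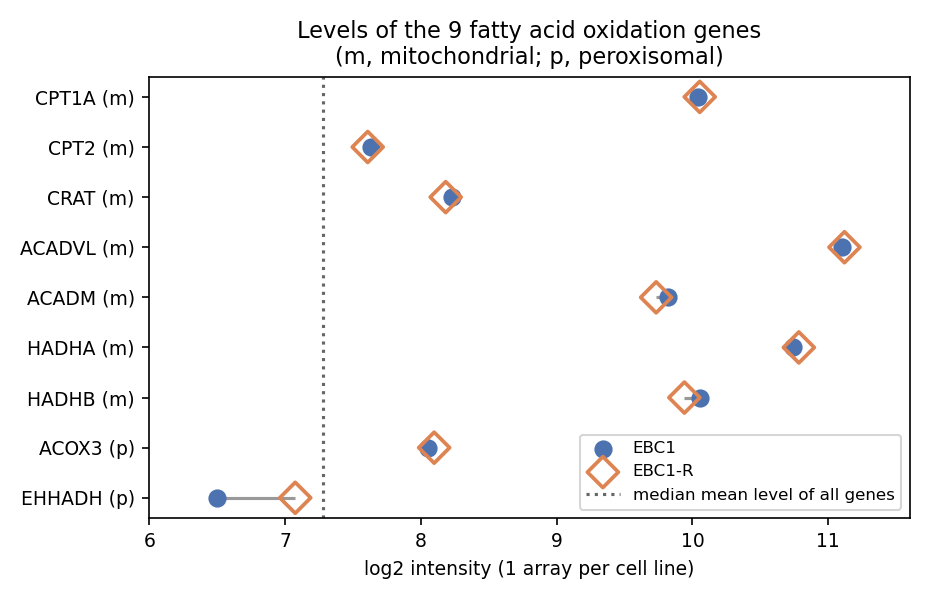
Log2 intensity of each of the 9 genes in EBC1 (filled circles) and EBC1-R (open diamonds), 1 array each, with the median of all genes' mean level as a dotted line. The symbols of 8 genes overlap; EHHADH, the only gene of the 9 under the dotted line, is separated by 0.58.

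Among the carnitine acyltransferases, CPT1A, the regulated entry step, measured 10.04 in EBC1 against 10.05 in EBC1-R, a difference of 0.01. CPT2, on the inner membrane, was at 7.63 and 7.61, a difference of -0.02. CRAT, which exchanges short acyl groups between coenzyme A and carnitine and whose product is found in mitochondria and peroxisomes, was at 8.23 and 8.18, a difference of -0.05. None of the 3 was thus separated between the lines by more than 0.05.

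The acyl-CoA dehydrogenases catalyse the first oxidation, ACADVL on very-long-chain and long-chain substrates and ACADM on medium-chain substrates. ACADVL measured 11.10 in EBC1 against 11.12 in EBC1-R. ACADM was at 9.82 and 9.73, a difference of -0.09. Both dehydrogenases were therefore nearly level between the lines. In RefSeq (GRCh38.p14), one of 2 annotated ACADVL promoter windows, which run from 250 bases before the start site to 50 bases from it on, overlaps the window of DLG4, a gene for a synaptic scaffold protein read in the opposite direction. It is shown because the genes on its sides differed in their values: DLG4 measured 6.47 in EBC1 against 5.88 in EBC1-R, a difference of -0.59 or 1.51-fold lower, beside 0.02 for ACADVL. The window lies at chr17:7219688-7219987 on the plus strand, and the 201 bases shared with the DLG4 window are in capitals.
ACADVL: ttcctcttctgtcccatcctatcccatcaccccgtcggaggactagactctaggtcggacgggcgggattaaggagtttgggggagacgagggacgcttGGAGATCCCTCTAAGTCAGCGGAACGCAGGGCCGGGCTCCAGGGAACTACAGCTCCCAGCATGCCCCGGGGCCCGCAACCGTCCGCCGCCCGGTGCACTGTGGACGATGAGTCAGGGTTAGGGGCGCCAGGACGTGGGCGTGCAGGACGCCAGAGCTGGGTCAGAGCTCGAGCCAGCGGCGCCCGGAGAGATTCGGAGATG

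HADHA and HADHB encode the alpha and beta subunits of the mitochondrial trifunctional protein, which carries out the hydration, the second oxidation (both on the alpha subunit) and the thiolysis (on the beta subunit) of long chains. HADHA measured 10.74 in EBC1 against 10.78 in EBC1-R, a difference of 0.05. HADHB was at 10.06 and 9.94, a difference of -0.11, the largest in size among the 7 mitochondrial genes and 1.08-fold lower. The subunit genes thus differed in opposite directions, by 0.05 and 0.11, both under the SD of 0.16 between probe sets of a gene. They lie side by side in RefSeq and are read in opposite directions from start sites 307 bases apart. The HADHA window, at chr2:26244583-26244882 on the minus strand, shares 194 bases with that of HADHB, in capitals here to show the stretch the subunit genes have in common.
HADHA: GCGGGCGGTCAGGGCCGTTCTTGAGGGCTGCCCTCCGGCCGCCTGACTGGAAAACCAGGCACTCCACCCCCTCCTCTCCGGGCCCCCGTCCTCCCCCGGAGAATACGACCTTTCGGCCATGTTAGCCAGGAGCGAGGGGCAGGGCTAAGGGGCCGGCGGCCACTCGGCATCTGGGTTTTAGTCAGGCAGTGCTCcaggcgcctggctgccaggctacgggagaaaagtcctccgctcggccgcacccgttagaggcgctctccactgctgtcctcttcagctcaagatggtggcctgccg

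The peroxisomal genes gave a small and a larger difference. ACOX3, an acyl-CoA oxidase for branched chains, measured 8.05 in EBC1 against 8.10 in EBC1-R, a difference of 0.05. EHHADH, which joins the hydration and the second oxidation in a single peroxisomal protein, was at 6.497 and 7.08, a difference of 0.58 or 1.49-fold higher. EHHADH stood at the 95.5th percentile of all signed differences, and 7.75% of all genes differed by as much or more in either direction. Its signal was the only one of the 9 under the median of all genes' mean levels, 7.28. With all genes divided by mean level into 5 classes of equal size, the class of EHHADH (3675 genes, means from 6.72 to 7.88) had 95% of its differences between -0.66 and 0.90, a range that includes the EHHADH value. The threshold of 1.5-fold is 0.585 on the log2 scale and lies just above the 0.579 of EHHADH, which passed it after quantile normalization, median centring or removal of a lowess trend on level. Whether EHHADH lay above background in EBC1 is not known. Next to EHHADH in gene order, MAP3K13, a kinase gene, went from 7.67 to 8.46, 1.72-fold higher, while C3orf70 on the other side differed by -0.06 and TMEM41A, beyond MAP3K13, by 0.01. One of 2 ACOX3 windows, at chr4:8440674-8440973 on the minus strand, shares 153 bases (capitals) with that of TRMT44, a tRNA methyltransferase gene that differed by -0.05; it is shown as the peroxisomal counterpart of the mitochondrial windows above.
ACOX3: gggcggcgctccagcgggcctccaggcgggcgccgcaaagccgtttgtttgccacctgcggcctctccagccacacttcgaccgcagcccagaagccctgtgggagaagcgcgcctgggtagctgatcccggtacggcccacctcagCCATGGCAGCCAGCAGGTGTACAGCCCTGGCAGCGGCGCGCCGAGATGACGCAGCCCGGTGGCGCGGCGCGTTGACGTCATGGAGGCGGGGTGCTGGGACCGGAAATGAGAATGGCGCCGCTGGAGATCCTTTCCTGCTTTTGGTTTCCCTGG

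**Figure D2:**
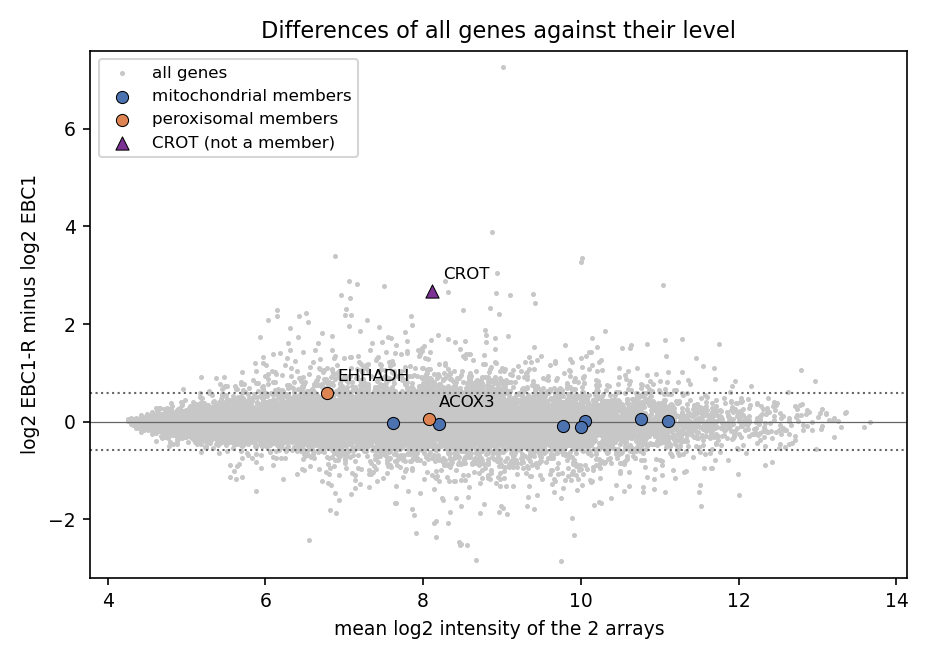
Difference (log2 EBC1-R minus log2 EBC1) of all 18377 genes (grey) against their mean log2 intensity, with the 7 mitochondrial genes (blue), the 2 peroxisomal genes (orange) and CROT (triangle, not among the 9); dotted lines mark 1.5-fold. The mitochondrial genes lie between -0.11 and 0.05, EHHADH at 0.58 and CROT at 2.67.

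Promoter windows were found in RefSeq for 7 of the 9 genes, 9 windows in all. The core of the GC box bound by SP1 (GGGCGG, on either strand) was in 7 of the 9 windows, those of CPT2, ACADM, HADHA, HADHB, both of ACOX3 and 1 of 2 of ACADVL, and in 45.0% of all 35116 windows of 300 bases. The only match in the HADHA window lies in the stretch shared with HADHB, so the same bases are counted in both windows. The CPT1A window held none. The 7 windows with the core were 65% to 70.7% G and C, against a median of 58.7% over all windows. The CPT1A window and the other ACADVL window were at 50% and 52.7%. The half-site of nuclear receptors (AGGTCA) was in none of the 9 and in 13.8% of all windows. The longer motifs that contain it were in none of the 9 either: the direct repeat with 1 base between half-sites that PPAR and RXR bind (AGGTCA followed, after any base, by AGGTCA again), present in 0.023% of all windows, and the extended half-site of estrogen-related receptors (TCAAGGTCA), present in 0.35%. The NRF1 core (GCGCA followed directly by TGCGC) was in none of the 9 and in 1.24% of all windows. These are matches of letters in short windows, and a window without a motif says nothing about the factor.

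To set mitochondrial against peroxisomal steps beyond the 9 genes, other genes of the pathway were taken from lists. These were drawn up by function, with earlier results of these data known. Of 19 other mitochondrial oxidation genes, all of them measured, 11 were above 0, with a median of 0.05. Of 21 other peroxisomal oxidation genes, 16 were measured and 10 were above 0, with a median of 0.17. With the 9 genes included (CRAT with the mitochondrial side, CPT1A and CPT2 too), the median was 0.02 over 26 mitochondrial and 0.17 over 18 peroxisomal genes. The 2 sides are not matched gene for gene. Peroxisomal CROT (2.67) and mitochondrial SLC25A20 (0.21) were counted with other carnitine genes and are on neither side. Both lists also hold genes outside the beta-oxidation steps, such as PCCB and HACL1, and the peroxisomal list holds transporters such as ABCD3. Over genes whose mean level reached the median of all genes, the median was -0.09 over 15 of the other mitochondrial genes, with 7 above 0, and 0.37 over 9 of the other peroxisomal genes, with 7 above 0. All 9189 genes at that level had a median of -0.006, and their share above 0 was not computed. The mitochondrial median thus changed sign with the level filter, while the peroxisomal one was above 0 both ways. With 1 array a line these medians describe the arrays, and the difference between the compartments was not tested.

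At the first oxidation, ACADS, the short-chain dehydrogenase, went from 7.11 to 7.54, a difference of 0.44. ACADL, the long-chain dehydrogenase, was low on both arrays (4.84 and 4.89) and differed by 0.05. Peroxisomal ACOX2, the oxidase for bile acid intermediates and branched chains, went from 5.91 to 6.12, a difference of 0.21. At this step, then, ACADVL, ACADL, ACADM and ACOX3 were within 0.09 of 0, while peroxisomal ACOX2 (0.21) and mitochondrial ACADS (0.44) were higher. Other genes of the dehydrogenase family, in the wider mitochondrial list, also differed: ACAD9 by -0.28, ACAD10 by 0.38 and ACAD8 by -0.39.

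At the hydration and second oxidation the compartments were farther apart. HSD17B4, the other peroxisomal multifunctional enzyme, went from 9.26 to 9.88, a difference of 0.63 or 1.54-fold higher, beside 0.58 for EHHADH. On the mitochondrial side, HADHA differed by 0.05, ECHS1, the hydratase for short chains, by -0.29 (9.71 to 9.42) and HADH, the dehydrogenase for medium and short chains, by 0.17 (8.35 to 8.52). Both peroxisomal genes of the step were above each of the 3 mitochondrial ones. At the thiolysis, HADHB differed by -0.11, mitochondrial ACAA2 by 0.22 (7.36 to 7.58) and peroxisomal ACAA1 by 0.05 (7.84 to 7.88), with the peroxisomal gene between the mitochondrial ones. Among auxiliary enzymes for unsaturated chains, the mitochondrial isomerase ECI1 differed by -0.15 and the reductase DECR1 by -0.52 (1.43-fold lower). Peroxisomal ECI2 differed by 0.51 (1.42-fold higher), PECR by 0.37 from a low signal (5.43 to 5.80) and DECR2 by -0.03. The ECI2 protein is also found in mitochondria. ECI1, PECR and DECR2 were neither fixed pathway partners nor among the 3 largest differences of their lists.

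**Figure D3:**
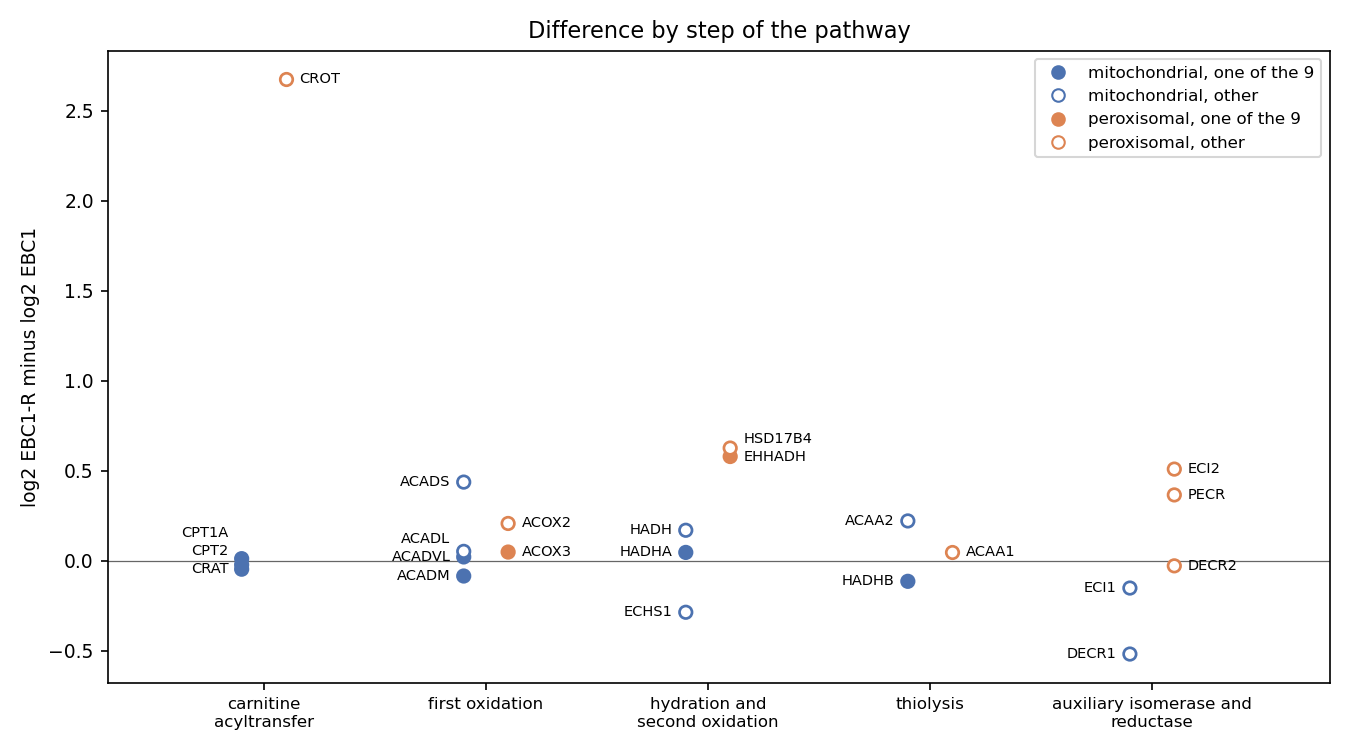
Difference (log2 EBC1-R minus log2 EBC1) of the measured genes assigned to 5 steps of the pathway, mitochondrial in blue and peroxisomal in orange. Filled circles are the 9 genes and open circles other genes. ACAD8, ACAD9, ACAD10 and ACADSB were not assigned to a step and are not shown. At the hydration and second oxidation EHHADH (0.58) and HSD17B4 (0.63) lie above HADHA, ECHS1 and HADH, and CROT stands apart at 2.67.

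The carnitine system outside the 9 genes contained the largest difference among all the lists. CROT, the peroxisomal carnitine octanoyltransferase that acts on medium chains, went from 6.78 in EBC1 to 9.45 in EBC1-R, 6.38-fold higher, beside -0.05 to 0.01 for CPT1A, CPT2 and CRAT. CROT lies near ABCB1 on chromosome 7, and the measured genes around it were also higher in EBC1-R: TMEM243 3.00-fold, TP53TG1 4.52-fold, and, from low signals in EBC1, ABCB4 2.05-fold (5.56) and ABCB1 155-fold (5.37). The part of this neighbourhood in the CROT value was not tested. SLC22A5, the carnitine transporter of the plasma membrane, went from 7.66 to 8.38, 1.65-fold higher. SLC25A20, the inner membrane translocase, went from 6.96 to 7.17, a difference of 0.21, and CPT1C, a form of CPT1 found mainly in neurons, from 6.04 to 6.01. Of 9 measured genes of this list, CROT and SLC22A5 were at least 1.5-fold higher, which 4.41% of all genes were. None was at least 1.5-fold lower, which 3.16% of all genes were. The median of the list was 0.09. CPT1B, the muscle form, was not analysed here.

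Upstream of the shuttle, fatty acid uptake and activation genes differed in both directions. Of 17 measured, SLC27A4, a fatty acid transport protein with acyl-CoA synthetase activity, was 1.64-fold lower (9.71 to 8.995) and ACSL5, a long-chain acyl-CoA synthetase, 1.51-fold lower (11.63 to 11.03). CD36, a fatty acid translocase, was 1.59-fold higher but low on both arrays, at 4.62 and 5.29. The median of the list was -0.04. Among other mitochondrial genes, ACADSB, a dehydrogenase of short branched chains from isoleucine, went from a low signal of 5.65 to 6.63, 1.97-fold higher, the only one of the 19 past 1.5-fold, and PCCB, a subunit of propionyl-CoA carboxylase, from 8.99 to 9.52. Among other peroxisomal genes, HSD17B4 alone of the 16 passed 1.5-fold. Of all genes, 7.57% passed 1.5-fold in either direction, 4.41% higher and 3.16% lower. HACL1, the lyase of alpha-oxidation, differed by 0.53 and the transporter ABCD3 by 0.26 (8.62 to 8.88). Of 13 measured peroxisome assembly genes, 8 were above 0, with a median of 0.04. Among them PEX2, part of the ubiquitin ligase of the import machinery, was 1.54-fold higher (8.01 to 8.64), the import receptor gene PEX5 differed by 0.35 and PEX11A, of peroxisome division, by 0.26. Ketone body genes had a median of 0.01 over 6 measured, with ACAT2 at -0.51, BDH2 at 0.50 and BDH1 at -0.24.

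Oxidation genes such as CPT1A, ACADM and EHHADH are known targets of PPAR receptors, and malonyl-CoA made by acetyl-CoA carboxylases holds back CPT1. Of 20 measured regulators, PPARG, the receptor best known from fat cells, was 1.93-fold lower in EBC1-R (10.31 to 9.36), while PPARA, the receptor best known for driving oxidation in liver, went from 7.01 to 7.54, a difference of 0.53. The coactivator PPARGC1A was low on both arrays, at 5.42 and 5.25. ACACA, the cytosolic acetyl-CoA carboxylase, was 1.51-fold lower (9.25 to 8.66), ACACB, the carboxylase at the mitochondrial membrane, was at 5.93 and 5.92, and of 6 AMP kinase subunit genes PRKAB2 differed by 0.61 (1.52-fold higher), PRKAG2 by 0.26, PRKAG1 by 0.19, PRKAA1 by 0.13, PRKAB1 by -0.45 and PRKAA2 by -0.55; the last 5 were named after their values were seen. Regulators were above and below 0 in equal number, 10 each, with a median of 0.06.

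Of 13 measured genes of a list of other PPAR targets, 7 were above 0, with a median of 0.19. PDK4, the kinase that inactivates pyruvate dehydrogenase, went from 8.21 to 10.64, 5.39-fold higher, and VNN1, a pantetheinase, from a low signal of 5.35 to 7.51, 4.46-fold higher. UCP2, a mitochondrial carrier, was 1.99-fold lower (7.80 to 6.81). TXNIP, named after its value was seen, was the remaining gene past 1.5-fold, with a difference of 0.87. The other 9 of the 13 lay within 1.5-fold. Counted once each, 113 genes of all these lists outside the 9 were measured; 10 of them were at least 1.5-fold higher, which 4.41% of all genes were, and 5 at least 1.5-fold lower, which 3.16% were. The lists were drawn up by function but with earlier results of these data known. The counts are therefore not free of that choice, and these shares describe 1 pair of arrays.

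**Figure D4:**
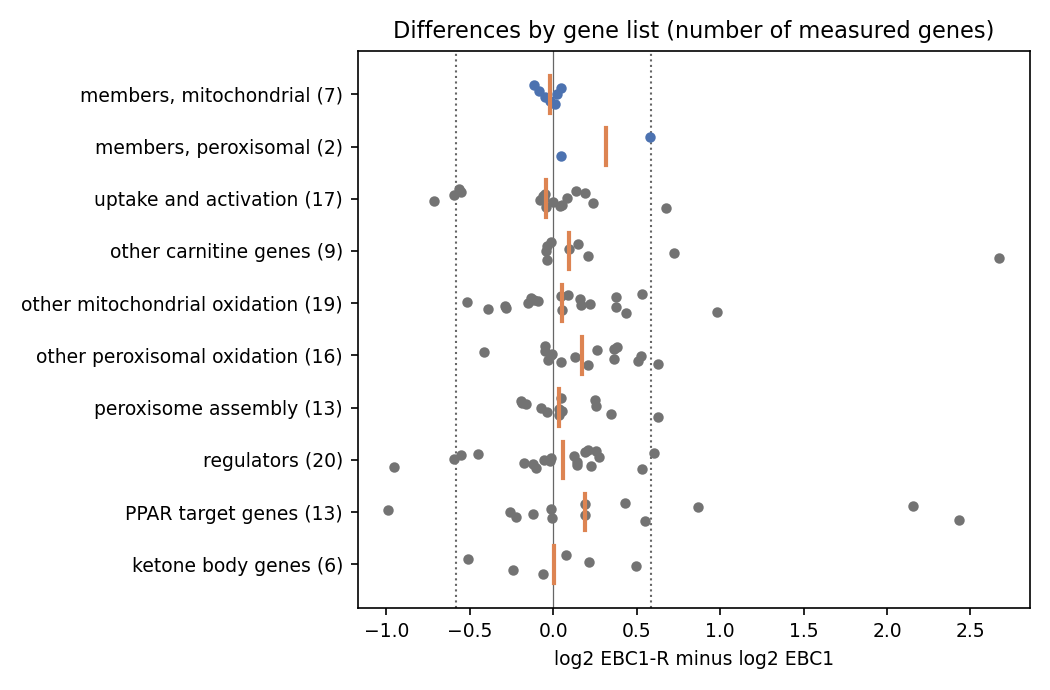
Difference (log2 EBC1-R minus log2 EBC1) of every measured gene in the 9 genes (blue, 2 rows) and in 8 lists of related genes (grey), with each median as an orange bar and 1.5-fold as dotted lines. The 7 mitochondrial genes span -0.11 to 0.05, while other lists reach -0.99 (UCP2) and 2.67 (CROT).

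Signals of cell type markers were as follows. All 6 epithelial markers were between 11.25 and 12.83 on both arrays, with KRT8 (-0.83), KRT18 (-0.78) and KRT19 (-0.89) more than 1.5-fold lower in EBC1-R and the other 3 between -0.16 and 0.10. The 5 measured squamous markers (KRT5, KRT14, SOX2, DSG3 and PKP1) had signals between 5.13 and 7.26; without detection calls these do not show whether the genes are expressed, and TP63, KRT6A and KRT17 were not analysed here. Leukocyte and endothelial markers (3 and 4 measured) were at 5.68 or lower; of 4 fibroblast markers, COL1A1 reached 7.64 and the others 6.38 or less. None of these 22 markers differed 2-fold, and the differences of the leukocyte, fibroblast and endothelial markers lay between -0.15 and 0.09.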

How the data were processed

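Total RNA of EBC1 and EBC1-R was labelled with a whole-transcript kit, per the labels' protocols. Per the labels, each deposited column is 1 array; its 28869 probe set values were read here as log2 intensities from their range (4.21 to 14.12 in EBC1, 4.22 to 14.22 in EBC1-R; medians 6.73 and 6.71). The log2 values the authors deposited have similar ranges and medians on both arrays; the sources used here do not give the background correction, summarization or normalization, and the array named in the labels' extraction protocol does not match these probe sets. If the arrays were scaled to a common distribution before deposit, a change shared by most genes would not be seen.

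Probe sets annotated to exactly 1 gene symbol (19310; 1752 had several and 7807 none) were averaged per gene, giving 18377 genes. Of these probe sets, 19279 were found by gene identifier in a RefSeq table (GRCh38.p14), which changed no symbol and was used for gene order and promoter windows. Each of the 9 genes has 1 probe set. Differences are EBC1-R less EBC1 on the log2 scale, counted at 1.5-fold and 2-fold. With 1 array per line there was no test and no p-value, and the number of arrays limits the precision. The level filter was a mean level of at least 7.28, the median of all genes, which 9189 genes reached. Genes named by rule were the 9, fixed pathway partners, and the 3 largest differences of each related list. Named outside this rule were ECI1, PECR, DECR2, ACAD8, ACAD9, ACAD10, TXNIP and the AMP kinase subunit genes other than PRKAB2. Neighbours in gene order or at promoters, and cell type markers, were named as such. The members and lists were chosen with earlier results of these data known. The alternatives were quantile normalization, median centring, a lowess trend (span 0.2), a pseudocount of 16, the brightest probe set, CRAT counted as peroxisomal, and the level filter. The counting was tested on simulated data. Python 3.11.15, pandas 2.3.3 and statsmodels 0.14.6 were used.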

Additional observations from a re-analysis of the deposited data

How the results depend on the processing

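No paired analysis was possible because each cell line has 1 array. Differences of the 9 genes moved by at most 0.07 under quantile normalization, median centring, the lowess trend and the pseudocount, without a change of sign and by less than the SD of 0.16 between probe sets of a gene; the brightest probe set could not move them, as each has 1 probe set. The EHHADH difference ranged from 0.51, with the pseudocount, to 0.63. The number of the 9 genes at least 1.5-fold higher was 1, EHHADH, after quantile normalization, median centring or removal of the lowess trend, against 0 as deposited, because EHHADH lies just under that threshold. The median of the peroxisomal genes went from 0.31 to 0.048 when CRAT was counted with them, and also to 0.048 with the level filter, which leaves ACOX3 alone. The median of the other peroxisomal genes was 0.37 with the level filter, which leaves 9 of 16, against 0.17, and that of the other mitochondrial genes -0.09 against 0.05. Medians of all genes stayed between -0.03 and -0.004 under every scaling tried. No detection calls were used, which limits every value that rests on a low signal, among them those of EHHADH, CD36, ACADL, ACADSB, ACOX2, PECR, DLG4, VNN1, PPARGC1A, ABCB4 and ABCB1.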
